A study of Ovis aries with 6 samples.

Results

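The cell cycle and DNA replication genes of sheep were followed in RNA from the cells that sheep shed into milk, both epithelium and leukocytes. Members were chosen by gene symbol: the CDK, CDKN, cyclin (CCN), CDC, MCM, E2F, ORC and RFC names, together with WEE1, PCNA and RBBP4. The choice found 73 genes among 11285 with a symbol, each entered by its transcript of highest mean level. The symbols are a naming scheme rather than a single pathway, so several members act outside the cell cycle, among them 6 genes named after CDC42, a small GTPase of the actin cytoskeleton. The gene table holds 114 symbols that fit the choice, and the 41 without a matched transcript, which include CCNA2, CCNB1, CCND1, MCM2, MCM4, MCM5, MCM7, E2F1 and ORC1, are not analysed here.

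There were 3 linseed and 3 control libraries, from the same 3 Comisana ewes. Linseed libraries came from ewes that had received grass, hay and a concentrate of which 20% of the dry matter was extruded linseed, a feed rich in the fatty acid alpha-linolenic acid, for 3 weeks. Control libraries belong to the preceding 3 weeks on grass hay and a commercial concentrate, in ewes at day 90 of lactation. Cells were spun down from milk (250 ml), and their RNA went through a TruSeq kit and a HiSeq2000 sequencer. Linseed followed the control period in each ewe, so diet and time cannot be told apart, and no group without linseed was followed over the same time. The cells were neither sorted nor counted by type, so fewer cells of a type and less RNA per cell cannot be told apart.

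As background, a dividing cell passes through a growth phase (G1), DNA synthesis (S), a further gap (G2) and mitosis, and cyclins bind and activate the cyclin-dependent kinases (CDKs) that drive each step. CDKN proteins and the kinase WEE1 hold the CDKs back, and CDC25 phosphatases release them from WEE1. Replication starts where the origin recognition complex (ORC) loads the MCM helicase, and the clamp PCNA, loaded by replication factor C (RFC), then holds the polymerase on DNA. Milk cells are mostly differentiated secretory epithelium and mature leukocytes, in which few cells divide.

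Levels are RPKM, read counts scaled to transcript length and library size, as the authors deposited them. The library totals, solved from the steps between low values, were 4941935, 5978026 and 19912996 reads for linseed sheep 1, 2 and 3 and 22644050, 8805705 and 10602801 reads for control sheep 1, 2 and 3. Milk protein genes took 30.3%, 23.7% and 1.3% of reads in the linseed libraries and 48.1%, 36.0% and 4.4% in the control libraries, so both libraries of sheep 3 stood apart. Neutrophil markers (5 of 9 matched) summed to 3187, 2576 and 2314 RPKM with linseed and to 422, 774 and 954 RPKM in controls, and macrophage markers (7 of 12) to 918, 1110 and 1593 RPKM with linseed and to 101, 711 and 464 RPKM in controls. Epithelial markers (EPCAM, KRT8 and ELF5, 3 of 9) summed to 415, 585 and 28.8 RPKM with linseed and to 275, 223 and 93.6 RPKM in controls. KRT8 alone had 355, 500.0 and 21.3 RPKM with linseed and 17.6, 98.6 and 54.5 RPKM in controls. EPCAM and ELF5 were lower with linseed in all 3 sheep, at -1.82 ± 1.04 and -1.10 ± 0.82 on the log2 scale, so the epithelial markers did not share a direction. The fibroblast genes COL3A1 and DCN and the erythrocyte gene ALAS2 were at 0 in every library. The fibroblast gene COL1A2 was detected at a low level, on at most 10 reads in a library. It had 0.439, 0.218 and 0.0109 RPKM with linseed and 0, 0.197 and 0 RPKM in controls. T and NK cell markers (7 of 10) summed to 637, 378 and 252 RPKM with linseed and to 13.5, 408 and 1005 RPKM in controls. The neutrophil and macrophage sums did not overlap between the groups. They rest on a few abundant genes such as S100A8, S100A9 and CD68, and of the tested markers 4 of 5 and 4 of 6 were higher in all 3 sheep. FCGR3A and CD14 differed in direction between sheep, and MRC1 was lower with linseed in all 3, at -1.61 ± 0.78. The part of these markers in the results on the members was not tested.

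Of the 73 members, 50 averaged at least 1 RPKM and were tested. Log2 changes are linseed minus control on the log2(RPKM + 1) scale, which understates the change of low transcripts, and each carries the standard error (SE) of the limma fit. None of the 50 passed an adjusted p of 0.05 by limma with Benjamini-Hochberg adjustment over 15891 transcripts, where 0.00% of transcripts were called in either direction and the smallest adjusted p was 0.263. At an unadjusted p under 0.05 there were 11 of the 50 members, beside 15.5% of all transcripts. Among the 5976 tested genes with a symbol, 1 transcript each, 557 were lower and 501 higher at that p. With the sheep as a block in the same model, 5 members passed, which is 10.0% of those tested, beside 2.62% of all transcripts (1.34% lower and 1.28% higher). Of the 5976 genes with a symbol, 115 were called lower and 83 higher with the block. RBBP4, WEE1, CDC42SE2 and CDKN1B fell with linseed in that fit and CDC42EP2 rose, at limma adjusted p-values of 0.0401, 0.0441, 0.0451, 0.04998 and 0.0441. The smallest adjusted p of any transcript in the blocked fit was 0.0401, so these 5 calls lie close to the threshold, and the fit has 2 residual degrees of freedom. Of the 10 blocked fits run, 7 called none of the members.

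More members were lower than higher with linseed. With linseed, 21 of the 50 (42.0%) were lower in all 3 sheep, 7 (14.0%) were higher in all 3 and 22 differed in direction between sheep. Among the 5976 tested genes with a symbol, taken by the same choice of transcript, 30.8% were lower and 22.7% were higher in this sense, and among all tested transcripts 26.2% and 23.0%. The groups did not overlap for 7 members that were lower with linseed (14.0%) and 5 that were higher (10.0%), beside 9.27% and 13.4% of those genes and 7.83% and 13.3% of all transcripts. The median log2 change of the members was -0.58, against -0.25 over tested genes with a symbol and -0.12 over all tested transcripts. It was -0.91, -0.33 and -0.17 in sheep 1, 2 and 3, and it came to -0.18 without linseed sheep 1 and to -1.01 without linseed sheep 3. The size of the median thus rests in part on those libraries, while its sign was negative in every sheep and without each library in turn.

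**Figure D1:**
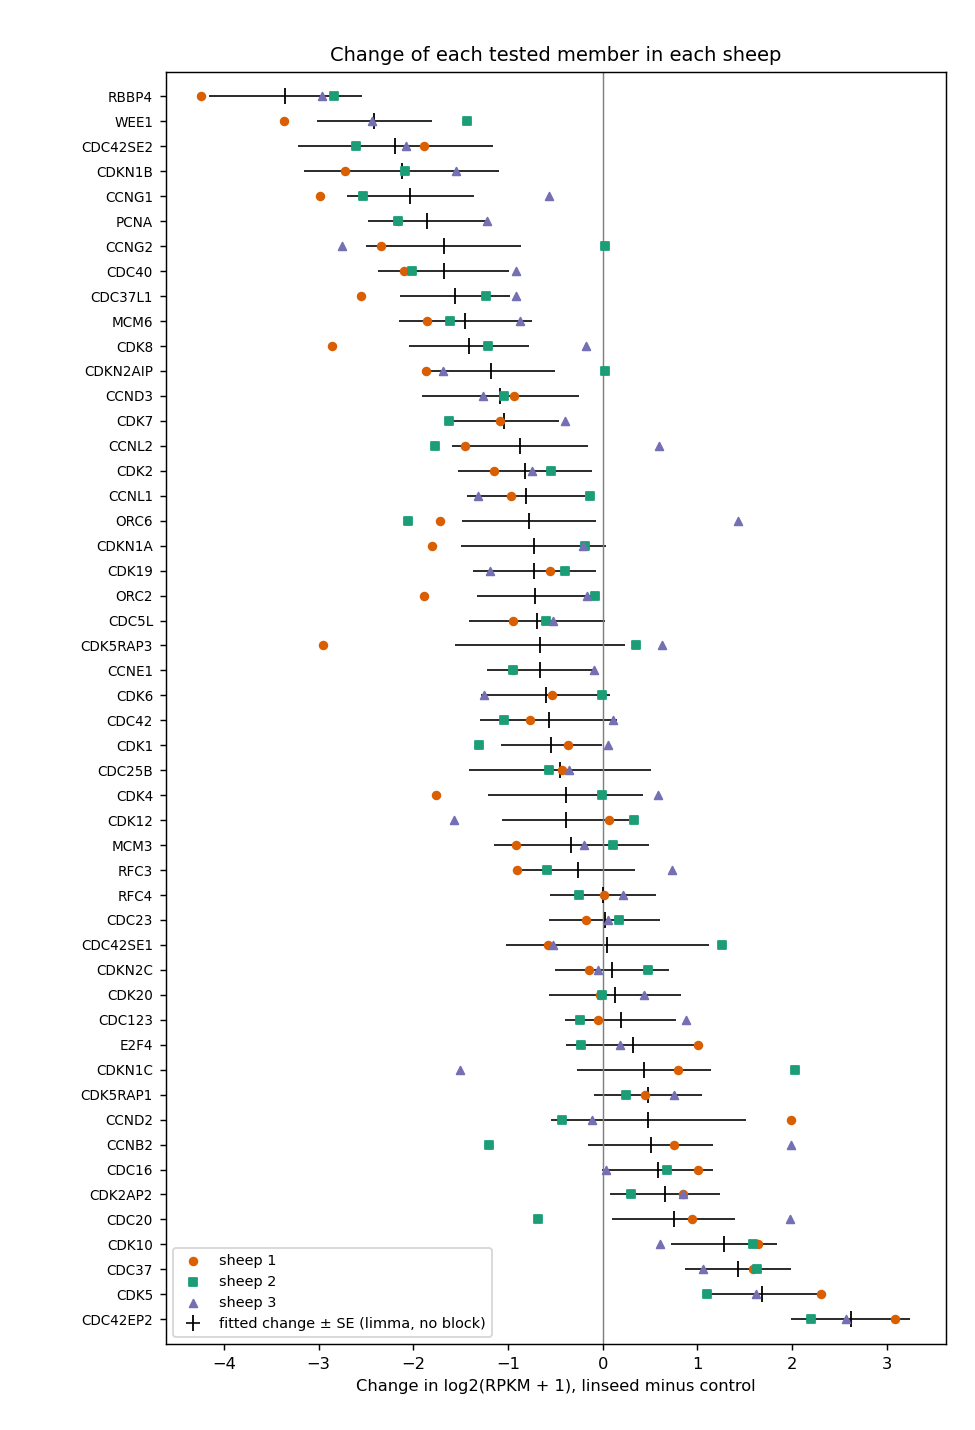
Change in log2(RPKM + 1), linseed minus control, for each of the 50 tested members, ordered by the fitted change. Coloured points are sheep 1, 2 and 3, and the black tick and bar are the fitted change ± SE of limma without a block. RBBP4 lies at -3.35 and CDC42EP2 at 2.62, with all 3 sheep on the same side of 0.

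The widest difference among members was in RBBP4 (XM_004005013.2), which encodes a histone-binding subunit shared by the chromatin assembly factor CAF-1, the NuRD deacetylase complex and Polycomb repressive complex 2. RBBP4 had 0.820, 0.339 and 5.597 RPKM with linseed and 33.4, 8.57 and 50.5 RPKM in controls. Every linseed library was below every control library, and sheep 3 was the highest of both groups. These values rested on 8, 4 and 220 reads with linseed and on 1494, 149 and 1057 reads in controls. The log2 change was -3.35 ± 0.81 (limma adjusted p = 0.263), with sheep values of -4.24, -2.84 and -2.96. By mean level RBBP4 ranked 38 among the 50 members with linseed and 11 in controls.

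WEE1 (XM_015101039.1), the kinase that blocks entry into mitosis by phosphorylating CDK1, was next among the members that were lower. Its levels were 1.30, 1.99 and 1.22 RPKM with linseed and 22.7, 7.07 and 11.04 RPKM in controls. The linseed libraries were close to one another and all lay below the lowest control library. The log2 change was -2.41 ± 0.61 (limma adjusted p = 0.263), on 20, 37 and 76 reads with linseed and 1602, 194 and 365 reads in controls. CDC25B, the phosphatase that undoes the work of WEE1 on CDKs, had 1.98, 7.99 and 28.0 RPKM with linseed and 3.00, 12.3 and 35.9 RPKM in controls. These values are of its most abundant transcript, which was lower in all 3 sheep with groups that overlap widely, at a log2 change of -0.45 ± 0.96. The other tested transcript of CDC25B was higher with linseed in sheep 1 and 2 and lower in sheep 3, at 1.4 ± 0.71. The ratio of WEE1 to the most abundant CDC25B transcript, within each library, was 0.657, 0.248 and 0.0438 with linseed and 7.56, 0.574 and 0.308 in controls. This ratio was lower with linseed in each sheep while the groups overlap.

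**Figure D2:**
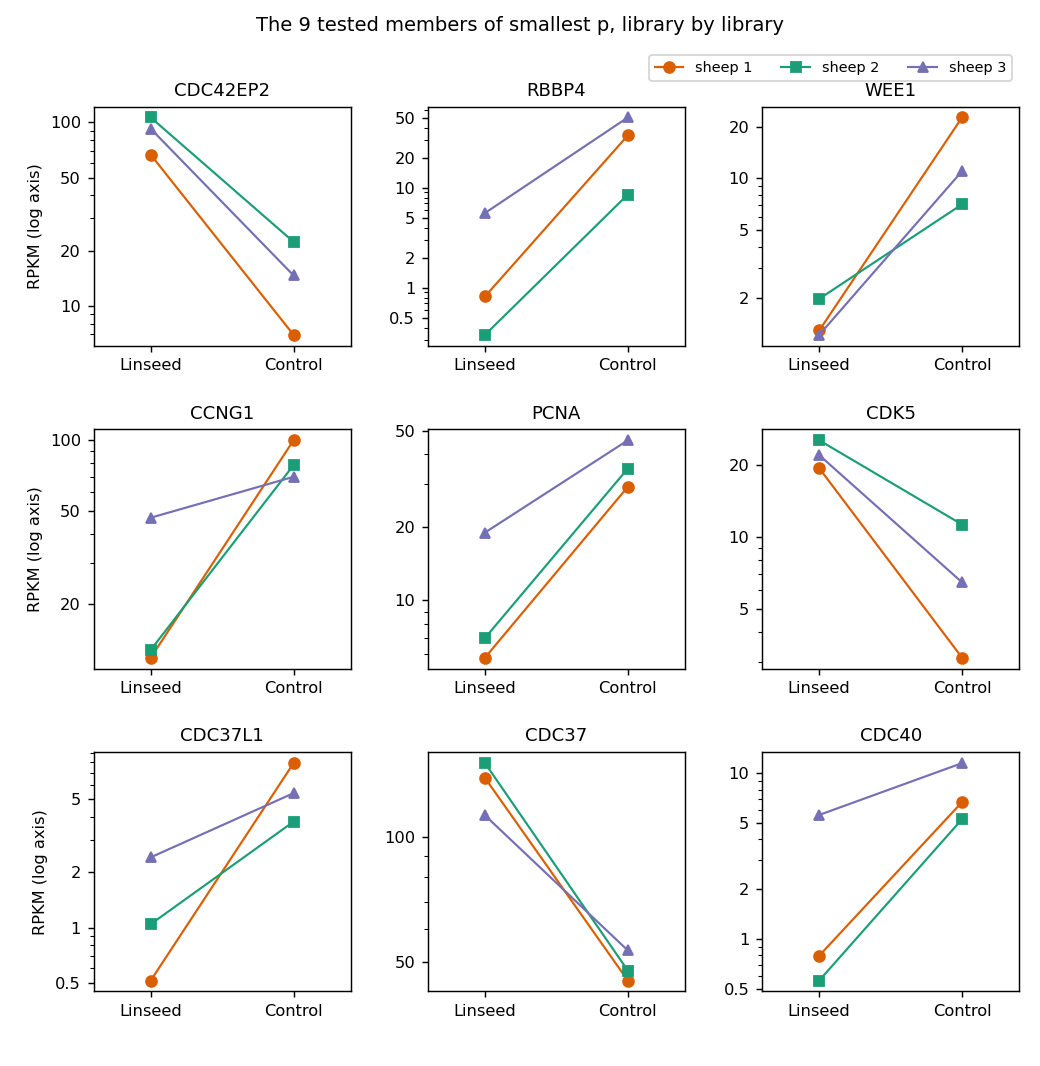
RPKM on log axes, with a scale of its own in each panel, for the 9 tested members of smallest unadjusted p. Each line joins the linseed and the control library of 1 sheep. All lines run the same way within a panel, and in CDC40 the linseed library of sheep 3, at 5.62 RPKM, lies above the control library of sheep 2, at 5.30 RPKM.

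The CDKs and their named partners held 16 members, of which 14 were tested, with a median log2 change of -0.47. With linseed 5 of the 14 were lower in all 3 sheep and 4 were higher. Those with the smaller p-values are not the kinases of G1 and S phase. CDK5, best known for its work in neurons, had 19.3, 25.3 and 21.9 RPKM with linseed and 3.12, 11.2 and 6.44 RPKM in controls, a log2 change of 1.68 ± 0.61 (limma adjusted p = 0.272) with no overlap. CDK10, a partner of cyclin M, had 10.5, 12.2 and 7.61 RPKM with linseed and 2.69, 3.39 and 4.65 RPKM in controls, a change of 1.28 ± 0.56, again with no overlap. CDK2AP2, named for its association with CDK2, was the most abundant of this class at 80.3, 93.7 and 79.5 RPKM with linseed and 44.2, 76.2 and 43.8 RPKM in controls, and its change of 0.66 ± 0.58 was close to its error.

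CDK8 and CDK7, which act on RNA polymerase II in the Mediator and in the transcription factor TFIIH, lay on the other side. CDK8 had 0.637, 2.24 and 3.40 RPKM with linseed and 10.9, 6.48 and 3.97 RPKM in controls, a log2 change of -1.41 ± 0.63. CDK7, which also activates other CDKs, had 3.37, 2.59 and 7.22 RPKM with linseed and 8.26, 10.1 and 9.83 RPKM in controls, a change of -1.04 ± 0.58. In the transcripts used here neither gene overlapped between the groups, though CDK8 in sheep 3 differed by only -0.18. The other tested transcript of CDK8 did overlap, at -0.66 ± 0.63, and was higher with linseed in sheep 3.

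The kinases that drive the cycle itself showed smaller differences, with errors that were wide in the fit without the block. With the block the errors of CDK1, CDK2, CDK4 and CDK6 were 0.47, 0.47, 0.57 and 0.49, and none of these kinases passed. CDK1, the mitotic kinase, was just above the limit for testing, with 0.324, 0.536 and 1.69 RPKM with linseed and 0.707, 2.82 and 1.59 RPKM in controls. Its log2 change was -0.54 ± 0.53, and the linseed values of sheep 1 and 2 rest on 2 and 4 reads. CDK2, the kinase of S phase, had -0.82 ± 0.71, and the G1 kinases CDK4 and CDK6 had -0.39 ± 0.82 and -0.60 ± 0.68. The CDK4 transcript used here stood at 1.39 RPKM in linseed sheep 1 and between 7.08 and 21.2 RPKM in the other libraries. The other tested transcript of CDK4 was not low there, with 5.77 RPKM in linseed sheep 1 and 3.68 RPKM in control sheep 1. CDK5RAP3, a CDK5-binding protein of the ubiquitin-like UFM1 pathway, was at 0.420 RPKM in linseed sheep 1 and between 9.997 and 17.3 RPKM elsewhere. In sheep 3 both genes were higher with linseed than in the control.

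The CDKN genes include the inhibitors p21 (CDKN1A), p27 (CDKN1B) and p57 (CDKN1C), which bind cyclin and CDK complexes, and p18 (CDKN2C), which binds CDK4 and CDK6. CDKN1A was the most abundant of all members in both groups, with 44.6, 93.5 and 283 RPKM with linseed and 158, 107 and 327 RPKM in controls. It was lower with linseed in each sheep, but the groups overlap, and the log2 change was -0.73 ± 0.77. CDKN1B had 1.49, 2.31 and 31.5 RPKM with linseed and 15.4, 13.1 and 94.4 RPKM in controls. In each ewe the linseed value was the lower, yet the spread between ewes was wide enough that linseed sheep 3 exceeded 2 of the control libraries. The log2 change was -2.12 ± 1.03 without the block (limma adjusted p = 0.344) and -2.12 ± 0.53 with it. The ratio of CDKN1A to CDKN1B was higher with linseed within every sheep, at 29.9, 40.4 and 8.99 with linseed and 10.3, 8.13 and 3.47 in controls. CDKN1C, a low transcript, differed in direction between sheep, at 0.44 ± 0.71.

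The class of cell cycle cyclins held 7 members by name, among them CCNB1IP1, which is named for its binding to cyclin B1 and is not a cyclin. Of the 7, 4 were tested, with a median log2 change of -0.09, and CCNB1IP1 was not among them. CCND3, a D-type cyclin and partner of CDK4 and CDK6, had 5.53, 11.6 and 32.6 RPKM with linseed and 11.5, 24.9 and 79.2 RPKM in controls. It was lower with linseed in all 3 sheep by a similar step, with overlap between the groups, and the log2 change was -1.08 ± 0.83. CCND2, the other D-type cyclin measured, had 4.19, 6.15 and 23.95 RPKM with linseed and 0.305, 8.62 and 26.0 RPKM in controls. It differed in direction between sheep, so the ratio of CCND3 to CCND2 was 1.32, 1.89 and 1.36 with linseed and 37.8, 2.89 and 3.04 in controls, with no overlap. The ratio of 37.8 rests on 6 reads of CCND2 in control sheep 1. In linseed sheep 1 the ratio rests on 24 reads of CCND3 and 18 of CCND2. CCNE1, which opens S phase with CDK2, had a change of -0.66 ± 0.56, and CCNB2, a mitotic cyclin, 0.51 ± 0.66.

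The other cyclins had a median log2 change of -1.28 over the 4 tested, of which 2 were lower in all 3 sheep with linseed and 2 differed in direction between sheep. CCNG1, cyclin G1, a target of p53, had 11.8, 12.7 and 46.7 RPKM with linseed and 100.1, 78.4 and 69.9 RPKM in controls. All linseed libraries were below all control libraries, and the step was smallest in sheep 3. The log2 change was -2.03 ± 0.67 (limma adjusted p = 0.263, or 0.0699 with the block, which another transcript of the gene passed). CCNG2, cyclin G2, which is linked to cell cycle arrest, had a change of -1.68 ± 0.82, with sheep 2 almost level at 0.692 RPKM with linseed and 0.658 RPKM in the control. The other tested transcript of CCNG2 was lower with linseed in all 3 sheep with no overlap, at -1.37 ± 0.52. It rested on 0, 0 and 30 reads with linseed. CCNL1 and CCNL2, partners of CDK11 in RNA splicing, had -0.81 ± 0.62 and -0.87 ± 0.72.

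The CDC names held 22 members, 13 of them tested, and their median change was 0.02. CDC37, the co-chaperone that hands kinases to Hsp90, had 138, 150.2 and 113 RPKM with linseed and 45.3, 47.8 and 53.4 RPKM in controls. The libraries of each group were close together and the groups were far apart, for a log2 change of 1.43 ± 0.56 (limma adjusted p = 0.288). Its paralogue CDC37L1 had a change of opposite sign, with 0.514, 1.04 and 2.42 RPKM with linseed and 7.88, 3.78 and 5.41 RPKM in controls, again with no overlap, at -1.56 ± 0.58. CDC40, a splicing factor, had 0.797, 0.565 and 5.62 RPKM with linseed and 6.72, 5.30 and 11.5 RPKM in controls, at -1.68 ± 0.69, with groups that overlap through sheep 3.

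The CDC members of the anaphase-promoting complex, the ubiquitin ligase that ends mitosis, had changes that were within their errors or close to them. CDC16, a subunit, had 18.2, 14.6 and 18.9 RPKM with linseed and 8.55, 8.71 and 18.3 RPKM in controls, at 0.58 ± 0.59. CDC23, another subunit, had 0.02 ± 0.59, and CDC20, the activator, 0.75 ± 0.65. CDC27, a further subunit, lay below the limit for testing, with 0.258, 0.0533 and 0.68 RPKM with linseed and 0.436, 0.543 and 0.977 RPKM in controls, lower in each sheep.

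CDC42 and 3 of its partners were tested, and they are members by name alone. CDC42EP2 (XM_012102126.1), an effector that binds active CDC42 and shapes the actin cytoskeleton, had 66.6, 106 and 92.3 RPKM with linseed and 6.97, 22.4 and 14.7 RPKM in controls. Every linseed library was above every control library, and the log2 change of 2.62 ± 0.63 (limma adjusted p = 0.263) was the highest of all 50 members. CDC42SE2, a small effector of the same GTPase, had 0.607, 2.11 and 16.3 RPKM with linseed and 4.96, 17.9 and 72.3 RPKM in controls. This transcript, its most abundant, was lower with linseed in every sheep, at -2.19 ± 1.03 without the block and -2.19 ± 0.51 with it. The spread between ewes was wide. The other tested transcript of CDC42SE2 was higher with linseed in sheep 1 and 2 and lower in sheep 3, at -0.47 ± 0.70. With its transcripts summed, CDC42SE2 did not pass with the block, at -1.77 (limma adjusted p = 0.0612). CDC42 itself had 38.5, 63.8 and 181 RPKM with linseed and 66.4, 133 and 168 RPKM in controls, at -0.57 ± 0.72, with no shared direction.

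**Figure D3:**
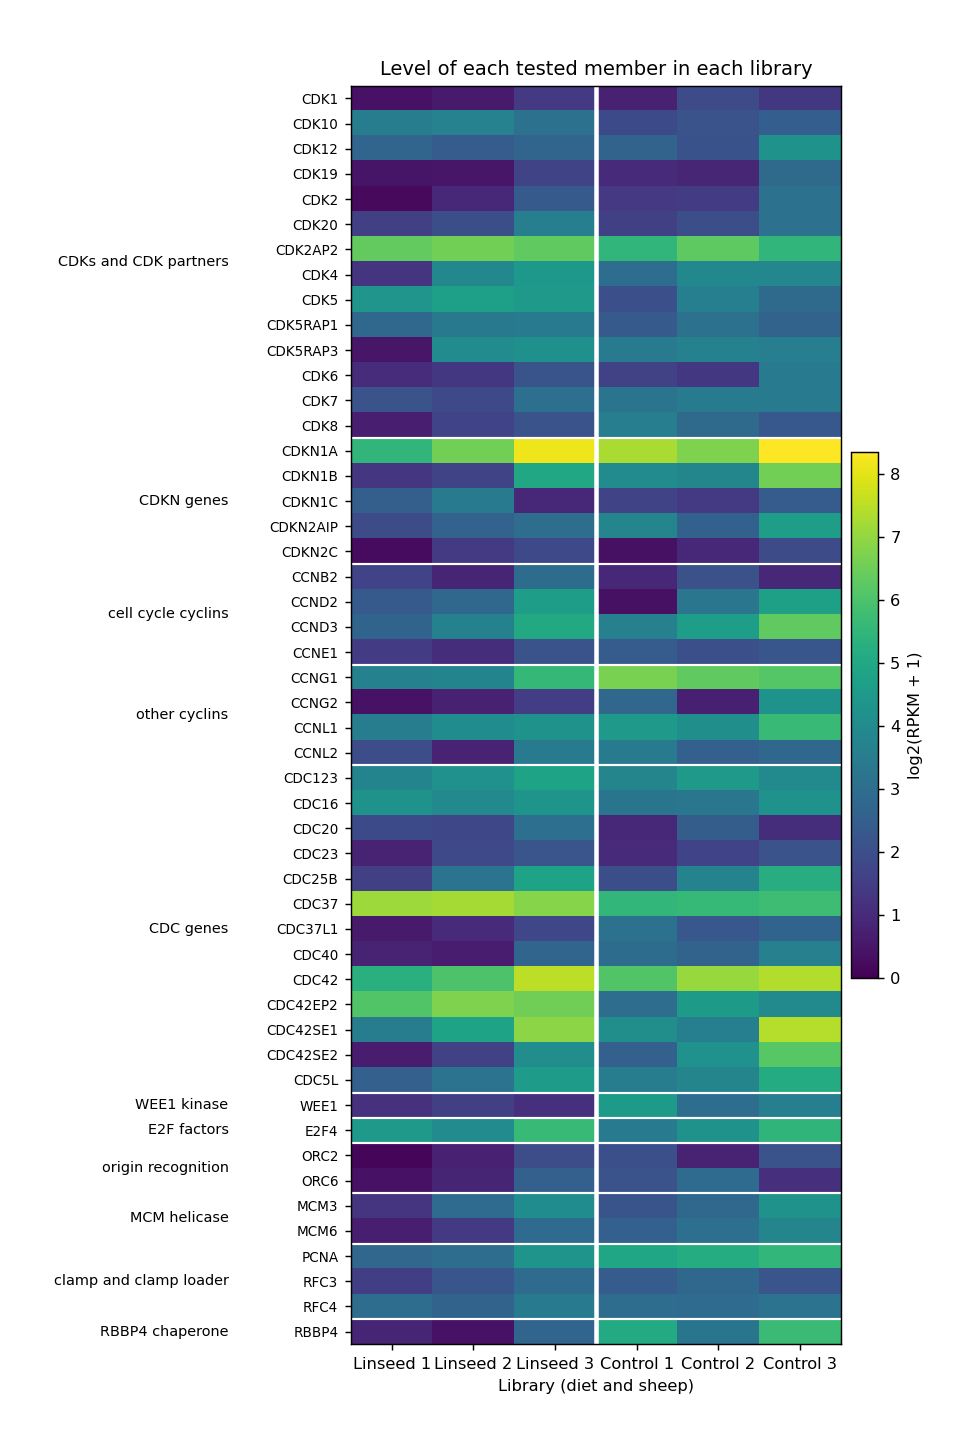
Level of each tested member, as log2(RPKM + 1), in the 3 linseed and the 3 control libraries, with members grouped by role. The columns of sheep 3 are the brightest of their group for most members, 43 of 50 among the linseed libraries and 31 of 50 among the control libraries.

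Among the replication members, 13 in all, 7 were tested: 2 of the ORC, 2 of the MCM helicase and 3 of the clamp and its loader. Their median log2 change was -0.71, and 3 were lower in all 3 sheep with linseed while 0 were higher. PCNA, the clamp, had 5.81, 7.004 and 19.0 RPKM with linseed and 29.4, 34.9 and 45.6 RPKM in controls. Each linseed library was below each control library, and the log2 change was -1.85 ± 0.63 (limma adjusted p = 0.264, or 0.0641 with the block). The loader subunits differed less between diets: RFC4 had 7.01, 5.33 and 9.63 RPKM with linseed and 6.94, 6.53 and 8.10 RPKM in controls, and RFC3 had a change of -0.26 ± 0.60. The ratio of PCNA to RFC4 was therefore 0.830, 1.31 and 1.98 with linseed and 4.23, 5.35 and 5.63 in controls, with no overlap.

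MCM6, a subunit of the helicase ring, had 0.624, 1.69 and 6.66 RPKM with linseed and 4.91, 7.22 and 13.0 RPKM in controls. It was lower in all 3 sheep, with overlap through linseed sheep 3, and the log2 change was -1.45 ± 0.70. MCM3, a neighbour in the same ring, had -0.33 ± 0.82, a value whose sign turned when the transcripts of the gene were summed (0.08). ORC2 and ORC6, of the origin complex, had -0.71 ± 0.62 and -0.78 ± 0.71. ORC6 was higher with linseed in sheep 3, at 4.88 against 1.19 RPKM, and lower in the other sheep.

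E2F4, the E2F factor that represses cell cycle genes in resting cells, was the only tested E2F member. It had 21.3, 15.2 and 49.0 RPKM with linseed and 10.1, 18.01 and 43.2 RPKM in controls, at 0.32 ± 0.71, with overlap. Its sign turned when single libraries were left out, to -0.14 without control sheep 1 and to -0.14 without linseed sheep 3.

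The 23 members that were not tested had mean levels between 0.00679 and 0.975 RPKM. They were CDK14, CDK5R2, CDKN3, CCNB1IP1, CCNB3, CCNE2, CDC14B, CDC20B, CDC25A, CDC25C, CDC27, CDC42BPA, CDC42EP3, CDC6, CDC7, E2F7, E2F8, ORC3, ORC4, ORC5, MCM8, MCM9 and RFC5. Some serve the firing of origins, such as CDC6, which loads the MCM helicase, and CDC7, the kinase that activates it. CDC7 was at 0, 0.1003 and 0.301 RPKM with linseed and 0.0794, 0.204 and 3.39 RPKM in controls. For a transcript of 2000 nt a single read equals 0.101, 0.0836 and 0.0251 RPKM in the linseed libraries and 0.0221, 0.0568 and 0.0472 RPKM in the control libraries. Of the 23, ORC4, MCM8 and MCM9 had groups that did not overlap, 3 lower with linseed beside 0 higher, and no p is given for them. The share of all transcripts below the limit without overlap was not computed, so this count has no background. ORC4 rested on 1, 10 and 61 reads with linseed. Its other transcript, at a mean of 0.967 RPKM, overlapped between the groups. MCM9, a helicase of DNA repair, had 0.609, 0.839 and 0.47 RPKM with linseed and 1.196, 0.854 and 1.78 RPKM in controls, on 18, 30 and 56 reads with linseed and 162, 45 and 113 reads in controls. MCM8 rested on 2, 0 and 5 reads with linseed and 27, 4 and 10 in controls. At the limit for testing, CDK1 and CDKN2C lay just inside, at mean levels of 1.28 and 1.41 RPKM, and ORC4 and ORC3 just outside, at 0.972 and 0.975 RPKM.

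Levels of the members differed between ewes as well as between diets. Linseed sheep 3 was the highest linseed library for 43 of the 50 tested members, against 67.8% of tested genes with a symbol, and control sheep 3 was the highest control library for 31, against 57.4%. Linseed sheep 1 was the lowest linseed library for 34 members, against 61.4% of genes. The members together took 0.098%, 0.14% and 0.278% of reads with linseed and 0.164%, 0.162% and 0.373% in controls, lower with linseed in each sheep and overlapping between groups. In linseed sheep 1, the shallowest library, 10 of the 50 members had fewer than 10 reads, against 3 in linseed sheep 2, 1 in control sheep 1 and 0 in the others. Over the 6 libraries a tested member had between 120 reads (CDK1) and 23281 reads (CDKN1A), with a median of 1500.

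The log2 change varied with transcript length. Across the 50 members the log2 change correlated with log2 length at r = -0.35, and across all 15891 transcripts at r = -0.32, a description over genes that share libraries. Over all transcripts the median log2 change was 0.57 below 1000 nt, 0.18 from there to 2000 nt, -0.14 to 3000 nt, -0.37 to 5000 nt and -0.55 beyond. Members in these classes, 3, 19, 17, 7 and 4 in number, had medians of 0.48, -0.26, -0.66, -1.45 and -0.64. After a correction for length within each library, which also recentres the values, the members' median was -0.52, with RBBP4 at -3.41, WEE1 at -2.19, PCNA at -1.88 and CDC42EP2 at 2.34. With milk protein genes left out of the library totals the median of all tested transcripts moved to -0.28 and that of the members to -0.81.

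**Figure D4:**
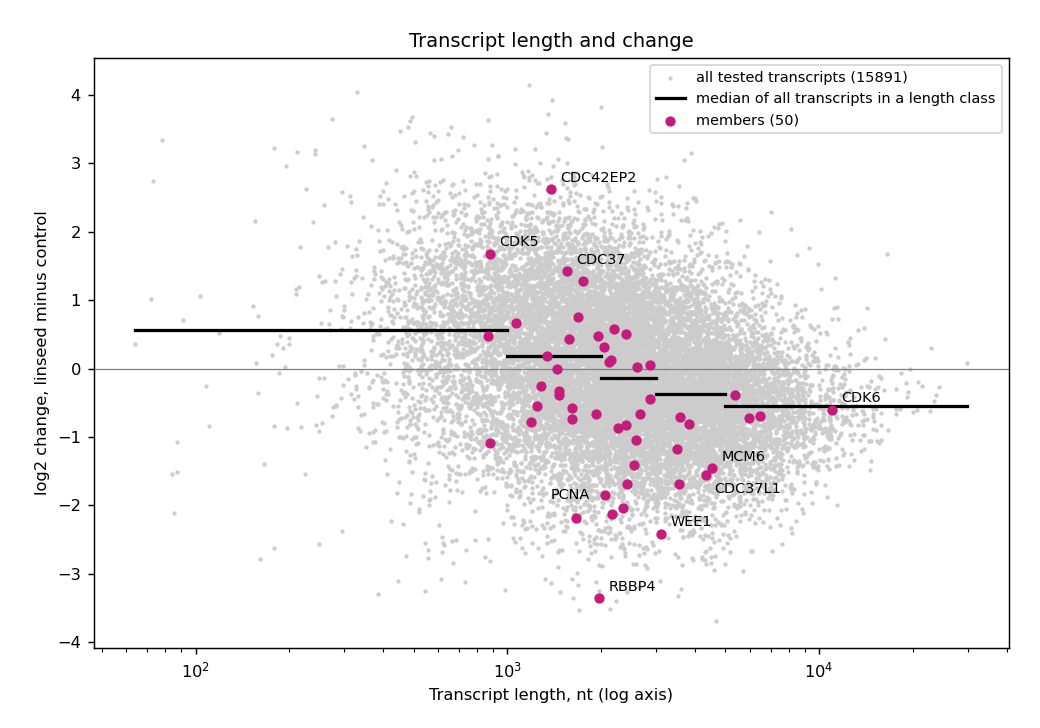
Fitted log2 change, linseed minus control, against transcript length on a log axis, for all 15891 tested transcripts in grey and the 50 members in pink. Black bars are medians of all transcripts in 5 length classes, and they step down from 0.57 to -0.55 as length grows, while RBBP4 and WEE1 lie well below the bar of their class and CDC42EP2 above it.

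Transcripts of 1 gene did not always share a sign. Of the 12 members with at least 2 tested transcripts, 4 had transcripts of opposite sign, namely CDK12, CDK2AP2, CDC25B and MCM3. CDC25B had -0.45 ± 0.96 in its most abundant transcript and 1.4 ± 0.71 in the next, and MCM3 had -0.33 ± 0.82 and 0.87 ± 0.56. The transcripts of CCNG1 shared a sign, at -2.03 ± 0.67, -2.69 ± 0.73 and -0.49 ± 0.57. The second of them by level (NM_001287473.1) had 0.438, 1.899 and 5.95 RPKM with linseed and 12.5, 13.9 and 37.8 RPKM in controls, with no overlap, and it fell in the blocked fit (limma adjusted p = 0.0401). Of 64 tested transcripts of members, 6 passed in that fit, this one and those of the 5 members named above. How the authors divided reads between transcripts or between near-identical genes is not given in the sources used here, so values of single transcripts depend on that step.

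Other genes of the pathway were taken from lists chosen by function. None passed without the block, and with it BTG1 fell and ANAPC11 rose, each at a limma adjusted p of 0.0441. These are 2 of 71 tested genes (2.82%), beside 2.62% of all transcripts, and 7 of the 10 blocked fits called 0 transcripts. Of the 5976 tested genes with a symbol, 115 were called lower and 83 higher in the same blocked fit. Of 19 tested genes of S phase and replication, 9 were lower in every sheep and 1 higher, and the median change was -0.75. The gene that was higher is POLA2, of DNA polymerase alpha, named after its values were seen, with 10.4, 10.6 and 13.5 RPKM with linseed and 4.08, 3.95 and 4.71 RPKM in controls, at 1.25 ± 0.55. The list includes GMNN, geminin, which stops origins from being licensed again, at -1.84 ± 0.69, RPA1, which coats single-stranded DNA, at -1.79 ± 0.71, and RRM2, of the reductase that makes deoxynucleotides, at -0.31 ± 1.13. GMNN rested on only 0, 4 and 86 reads with linseed. Of 12 tested mitotic genes, 3 were lower in every sheep and 1 higher, and the median change was -0.28. MAD2L1, of the spindle checkpoint, had -1.93 ± 0.69, BIRC5, survivin, had 1.03 ± 0.62, and UBE2C, the ubiquitin-conjugating enzyme of the anaphase-promoting complex, had -0.04 ± 0.87. MAD2L1 rested on 0, 5 and 145 reads with linseed.

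The RB and DREAM complexes repress cell cycle genes, but the list under that name also holds other genes, such as RBBP8 and MYBL2. Of its 8 tested genes, 6 were lower in every sheep and 2, LIN37 and MYBL2, were higher, and the median change was -1.25. RBBP8, which trims DNA ends for repair, had 0.189, 0.313 and 0.971 RPKM with linseed and 11.8, 2.52 and 4.50 RPKM in controls, with no overlap, at -2.11 ± 0.61 (limma adjusted p = 0.0505 with the block). RBL2, the RB relative p130, had -1.62 ± 0.59, and the deacetylase HDAC1 -0.60 ± 0.71. With linseed RBBP8 rested on 3, 6 and 62 reads and RBL2 on 5, 1 and 66 reads. Of 10 tested checkpoint and p53 genes, 7 were lower in every sheep and 0 higher, and the median change was -0.61. BTG1, which restrains proliferation, had 14.6, 29.0 and 249 RPKM with linseed and 379.9, 236 and 868 RPKM in controls, lower by a wide step in each ewe with groups that overlap through sheep 3, at -3.13 ± 0.97. GADD45A, a stress-induced gene, had -1.58 ± 0.72.

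The ubiquitin ligases of the cycle, with 12 tested, had no common direction: 3 were lower in every sheep and 4 higher, and the median change was -0.22. ANAPC11, the RING subunit of the anaphase-promoting complex, had 120.0, 60.3 and 33.7 RPKM with linseed and 7.52, 17.3 and 6.76 RPKM in controls, with no overlap, at 2.58 ± 0.67. ANAPC15 of the same complex had 1.56 ± 0.70, and SKP1, the adaptor of the SCF ligase, -1.55 ± 0.72. Of 10 tested upstream growth control genes, 4 were lower in every sheep and 1 higher, and the median change was -0.63. TGFB1, the growth factor TGF-beta, had 2.27 ± 0.92, and the transcription factors KLF6 and FOS had -1.80 ± 0.79 and -0.80 ± 0.82.

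**Figure D5:**
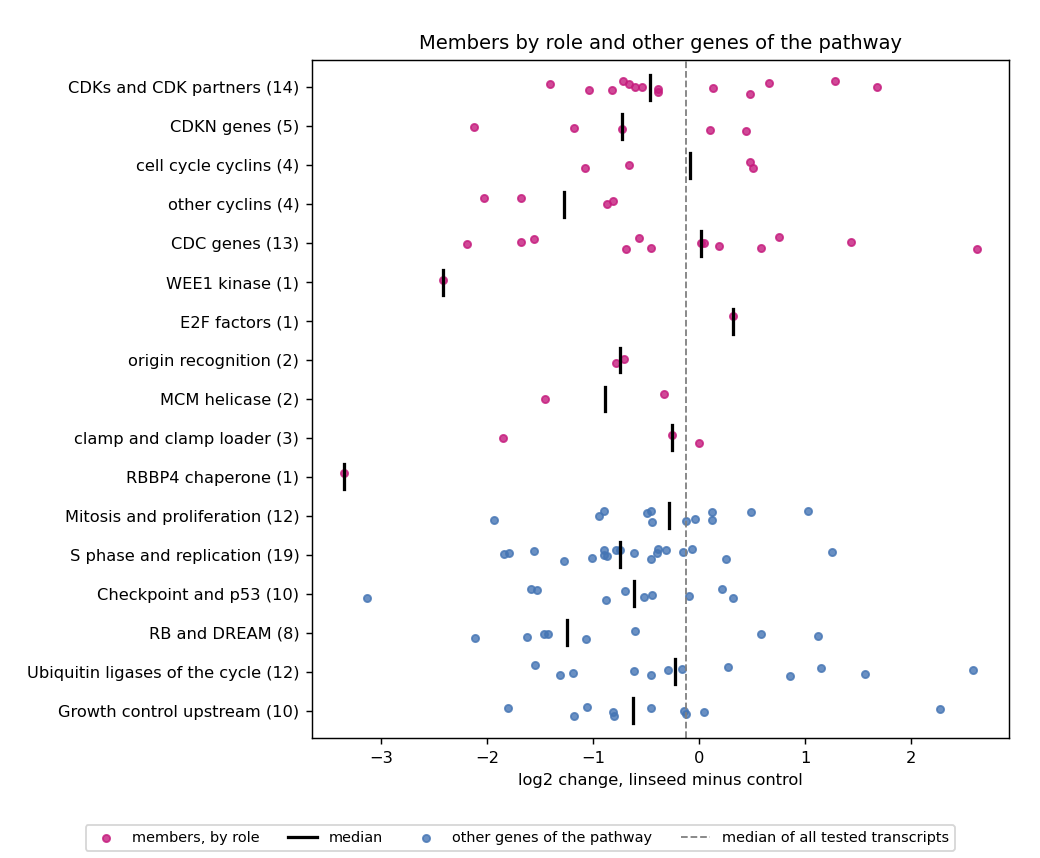
Fitted log2 change, linseed minus control, of the tested members by role in pink and of the tested genes of 6 other lists of the pathway in blue, with the number tested in brackets. Short black bars are class medians, and the dashed line at -0.12 is the median of all tested transcripts. The other cyclins lie lowest among classes of more than 2 members, at -1.28, and the RB and DREAM list lowest among the other lists, at -1.25.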

How the data were processed

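RNA of milk somatic cells was sequenced in 3 linseed and 3 control libraries. The authors deposited RPKM values for 49705 RefSeq transcripts, in 6 columns. Trimmomatic 0.33 served for trimming, per the submitters' processing notes. The aligner, build and counter, not given in the sources used here, could affect how reads were shared between transcripts. Diets were read from the letter of the sample titles and the series design. A RefSeq table (ARS-UI_Ramb_v3.0), which may not be the authors' build, gave symbols only and matched 15836 transcripts (31.9%). Library totals, lengths and reads were solved from the RPKM steps within 0.002 reads, and recovered reads made up 99.43% to 99.82% of the totals.

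Transcripts that averaged 1 RPKM or more were compared as log2(RPKM + 1) with limma 3.58.1 in R 4.3.3 (mean-variance trend, Benjamini-Hochberg over 15891 transcripts, adjusted p under 0.05), without a block. Libraries of the same animal identifier are paired, and their deviations from group means correlated at 0.18, 0.25 and 0.40 in sheep 1, 2 and 3. The libraries of linseed sheep 2 and control sheep 1 correlated at 0.24, so the pairing rests on the identifiers; blocked values are printed where a call changes. Alternatives were the block, pseudocount, filter, scaling, length correction, summed transcripts, single libraries or sheep left out, and limma-voom on recovered reads, which was chosen after seeing the data in place of a planned count-model test that needs deposited counts and was not run.

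Named members were up to 12 of smallest p among those lower and 6 among those higher in all 3 sheep, the most abundant and the smallest p of each role class, and CDK1, PCNA, WEE1 and RBBP4; from each pathway list, the 2 of smallest p and the most abundant. Other members in the text were chosen after their values were seen. Members and lists were chosen with earlier results of these data known.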

Additional observations from a re-analysis of the deposited data

How the results depend on the processing

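Calls depended on the pairing. Without the block, 0 transcripts and 0 members passed limma's threshold under any alternative run. With the sheep as a replicate block, 203 transcripts were called higher and 213 lower, and among members 1 was higher and 4 lower. The block with library totals free of milk proteins gave 36 and 116 transcripts and 3 lower members (RBBP4, WEE1 and CDC42SE2), and the block on summed transcripts, added after seeing the data, gave 224 and 228, with 1 higher and 3 lower members (RBBP4, WEE1 and CDKN1B). The other blocked fits called 0 members. The members' median log2 change was -1.01 to -0.18 when single libraries were left out and -0.81 to -0.39 over 19 other alternatives. Over 28 alternatives RBBP4 ranged from -4.21 to -2.85 and WEE1 from -3.10 to -1.94, with adjusted p-values of 0.0401 to 0.917 and 0.0436 to 0.917. Of 25 named members, 23 kept their sign in all alternatives run. MCM3 turned to 0.08 on summed transcripts, with and without the block, and ranged from -1.0 to 0.41 without single libraries; E2F4 ranged from -0.14 to 0.86 and came to -0.02 without sheep 1. The cause was not tested. By limma-voom on recovered reads, 0 transcripts passed and 2195 had an unadjusted p under 0.05, against 2464 by limma on log2 values. Depth limits the members under 10 reads, which lie mainly in linseed sheep 1.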
